A study of Macaca fascicularis with 38 samples.

Results

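Cells keep their proteins folded with families of chaperones, and 45 genes of these families were followed here in the prefrontal cortex of cynomolgus macaques (Macaca fascicularis). They were taken by symbol from the HSP, DNAJ, BAG and CCT families, with the HSP90 partners STIP1, AHSA1 and CDC37 and the transcription factors HSF1 and HSF2. Of the 45, the deposited table holds 44 of its 29958 genes under these symbols. HSPE1 was not analysed here. All 44 were among the 15324 genes tested, those with a mean TPM (a transcript's share of all transcripts, corrected for its length) of at least 1. By place in the cell, 35 act mainly in the cytosol and nucleus, 6 in the endoplasmic reticulum (ER) and 3 in mitochondria.

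RNA was sequenced in biopsies of area 46, a part of the prefrontal cortex, labelled as taken after or before chronic voluntary drinking of ethanol. GEO lists 38 samples of 22 animals in cohorts called Cyno 9 and Cyno 13, and every treatment label names ethanol. The deposited table holds both biopsies of 16 animals, and its header marks 10 of them as drinkers (5 per cohort) and 6 as controls (3 per cohort). Controls therefore also have an after and a before biopsy, and an interval between them. Animals are named as in the table's columns, an X and the animal's number. The after biopsies of the other 6 animals were not analysed here. Age, sex, amounts drunk and the interval between biopsies were not found in the labels.

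HSP70 proteins grip exposed hydrophobic stretches of unfolded proteins in a cycle driven by ATP. J-domain proteins (DNAJ) hand them their clients, while HSP110 and BAG proteins release the spent nucleotide and with it the client. HSP90 takes over later steps of folding with its partners, the ring-shaped CCT complex folds actin and tubulin, and HSF1 switches on many of these genes under heat and other protein stress. In nerve cells, HSPA8 also works at the synapse, with DNAJC5 on synaptic vesicles and with DNAJC6 (auxilin) in stripping clathrin from vesicles.

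Reads recovered from the TPM values ranged from 13.7 to 41.6 M reads per library, with a median of 37.7 M reads in cohort 13 and 18.1 M reads in cohort 9. The 13 mitochondrially encoded genes took 35.7% ± 5.71 of the TPM after and 41.5% ± 10.3 before in drinkers (SD, n = 10), and 37.8% ± 4.38 after and 42% ± 9.58 before in controls (SD, n = 6). The percentage was lower after in 13 of 16 animals. TPM are shares, and the median gene stood 0.17 higher after on the log2 scale over all 16 pairs. The main member counts and some single genes are given as deposited and again with every library scaled to one median. On that scale the median gene stood at -0.04 over all pairs. Fitted values with no scale named are as deposited. Markers of neurons, oligodendrocytes, astrocytes, precursors, microglia and endothelium were read as well, and none was at 0 in any library. A level above 0 is a low bar and tests neither the brain area nor the cell make-up. In bulk tissue, fewer cells of a type and less RNA per cell cannot be told apart.

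As deposited, every family held chaperone genes that stood higher after than before. Over all 16 pairs, 36 of the 44 rose and none fell at an adjusted p below 0.05 in limma, against 32.9% of all genes tested that rose and 3.69% that fell. Their median log2 change was 0.46, against 0.17 over all genes, and 39 of the 44 lay above that median. With libraries scaled to one median, 25 rose and none fell, against 9.7% and 17.1% of all genes, and the members' median was 0.24. In drinkers 37 rose and none fell, against 32.7% and 3.23% of all genes, with a median of 0.56 against 0.20. After median scaling 24 of the 44 rose and none fell in drinkers, against 12.1% and 19.4% of all genes.

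None of the 44 passed the threshold in the 6 controls as deposited, where 0.248% of all genes rose and 0.0522% fell. Their median change in controls was 0.34, against 0.12 over all genes, and 22 of 44 had an unadjusted p below 0.05 in limma, as did 12.8% of all genes. In controls 42 of 44 estimates were above 0, a count given without its share of all genes that does not show an excess. After median scaling STIP1 and HSPA5 rose in controls and none fell, against 0.392% and 0.189% of all genes. A call in drinkers and none in controls does not show that the arms differ. The difference itself, the change in drinkers minus the change in controls, passed for none of the 44 and for 0 of the 15324 genes. At an unadjusted p below 0.05 it held 2 members, against 6.76% of all genes. Chaperone genes of the first biopsies did not differ beyond the threshold between later drinkers and controls either, with 0 members at an unadjusted p below 0.05, against 1.42% of all genes.

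**Figure D1:**
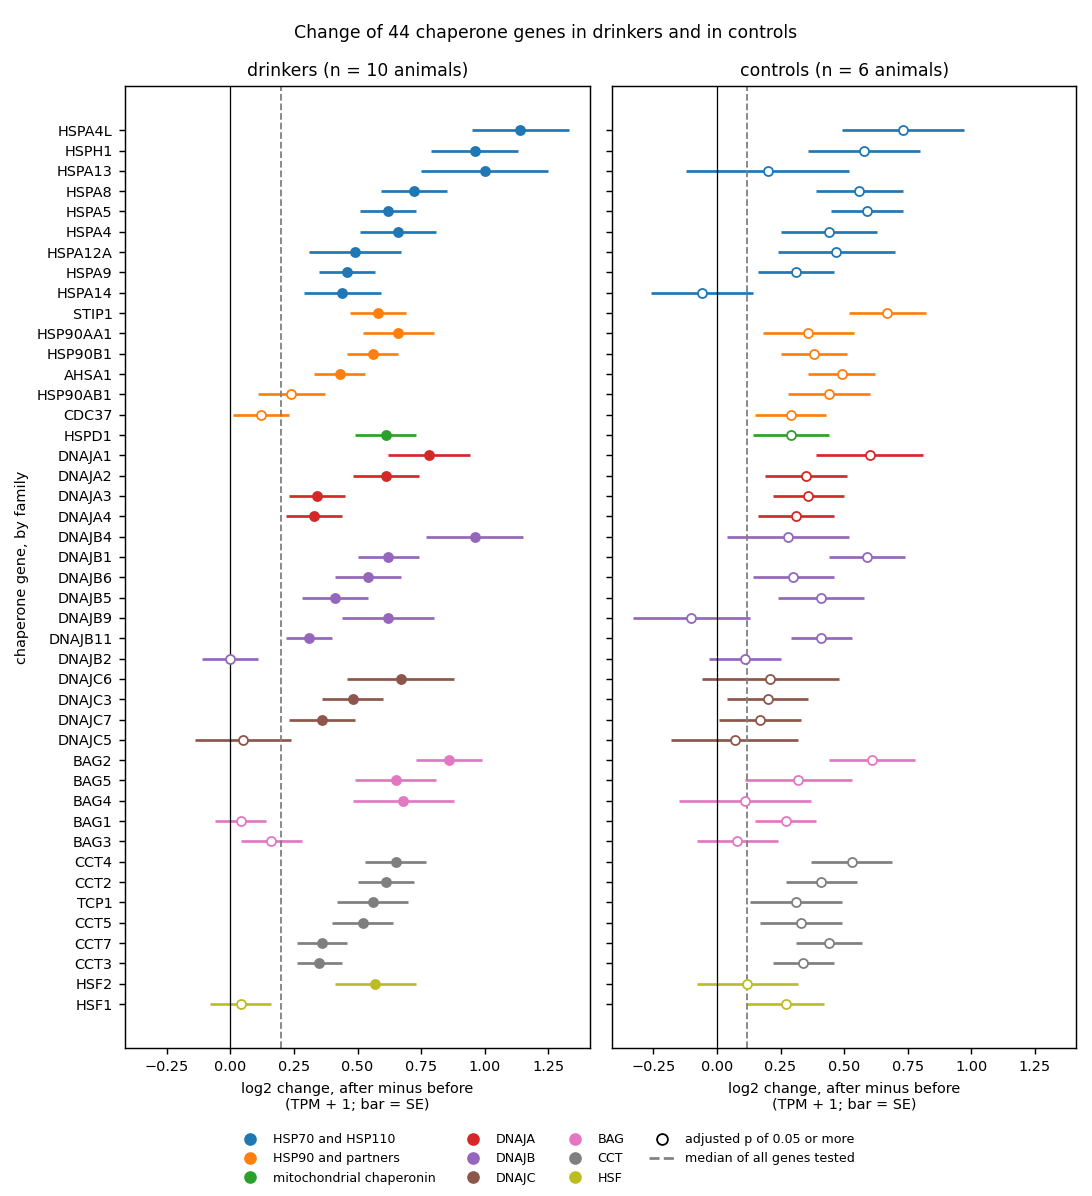
Fitted log2 change (after minus before, TPM + 1) of each of the 44 chaperone genes in 10 drinkers (left) and 6 controls (right), by family, with bars of 1 SE; filled points have an adjusted p below 0.05 in limma. The dashed line is the median of all genes tested, 0.20 in drinkers and 0.12 in controls, and 38 and 37 of the 44 points lie right of it.

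The HSP70 and HSP110 genes had the highest median of the families with 2 or more genes. As deposited, 8 of 9 rose over all pairs with a median of 0.61, and 8 of 9 still rose after median scaling, with a median of 0.40. Their median was 0.66 in drinkers, where 9 of 9 rose, and 0.47 in controls, where none passed. TPM of a group are given below as the lowest, median and highest animal, and fold changes as log2 values with their SE.

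HSPA8, the constitutive cytosolic HSP70, was the most abundant member. It had 1140, 1580 and 2020 TPM in drinkers after and 558, 845 and 2030 TPM before, and 981, 1380 and 1740 TPM in controls after and 625, 804 and 1570 TPM before. The medians stood apart in both arms, but 1 drinker, X10230, had 2030 TPM before, above every drinker's after value. The change was 0.66 ± 0.11 over all pairs (limma adjusted p = 0.000367, higher in 15 of 16 animals), 0.72 ± 0.13 in drinkers (adjusted p = 0.00236) and 0.56 ± 0.17 in controls (adjusted p = 0.192).

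HSPA5, known as BiP, is the HSP70 of the ER and a standard readout of ER stress. Its levels were 154, 187 and 251 TPM in drinkers after and 73.8, 117 and 218 TPM before, and 133, 191 and 216 TPM in controls after and 97.5, 98.9 and 174 TPM before. It was higher after in 16 of 16 animals, with 0.62 ± 0.11 in drinkers (limma adjusted p = 0.00164) and 0.59 ± 0.14 in controls (adjusted p = 0.0832, or 0.0342 after median scaling). The difference between the arms was 0.03 ± 0.18 with a 95% interval from -0.32 to 0.38.

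HSPA4L, an HSP110-type nucleotide exchange factor, had the largest estimate of the 44. It stood at 11.6, 18.9 and 28.0 TPM in drinkers after and 3.37, 6.89 and 18.0 TPM before, and at 9.01, 14.6 and 26.5 TPM in controls after and 5.54, 8.33 and 15.2 TPM before. The change was 0.98 ± 0.15 over all pairs (limma adjusted p = 0.000307), 1.14 ± 0.19 in drinkers and 0.73 ± 0.24 in controls, where the adjusted p was 0.238. Every drinker was higher after, and 5 of 6 controls.

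HSPH1, which encodes HSP105, another HSP110-type exchange factor, had 128, 173 and 221 TPM in drinkers after and 32.3, 80.6 and 228 TPM before, and 70.7, 149 and 196 TPM in controls after and 46.3, 95.4 and 182 TPM before. The widest single change was in drinker X10227, at 2.16. HSPH1 had a change of 0.81 ± 0.14 over all pairs (limma adjusted p = 0.000619, higher in 15 of 16 animals), with 0.96 ± 0.17 in drinkers and 0.58 ± 0.22 in controls.

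Among the other HSP70-type genes, HSPA4 (HSP110-type) had a change of 0.58 ± 0.11 and HSPA9 (mortalin, the mitochondrial HSP70) one of 0.40 ± 0.09 over all pairs. HSPA12A, an atypical HSP70, had a change of 0.48 ± 0.14 and HSPA13, linked to the ER, one of 0.70 ± 0.21, and all 4 passed. With cell type markers as covariates HSPA12A turned to -0.03 over all pairs (adjusted p = 0.883) and -0.09 in drinkers (adjusted p = 0.563). HSPA14, a ribosome-associated HSP70, was the exception at 0.25 ± 0.13 (limma adjusted p = 0.124) and 0.04 after median scaling.

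**Figure D2:**
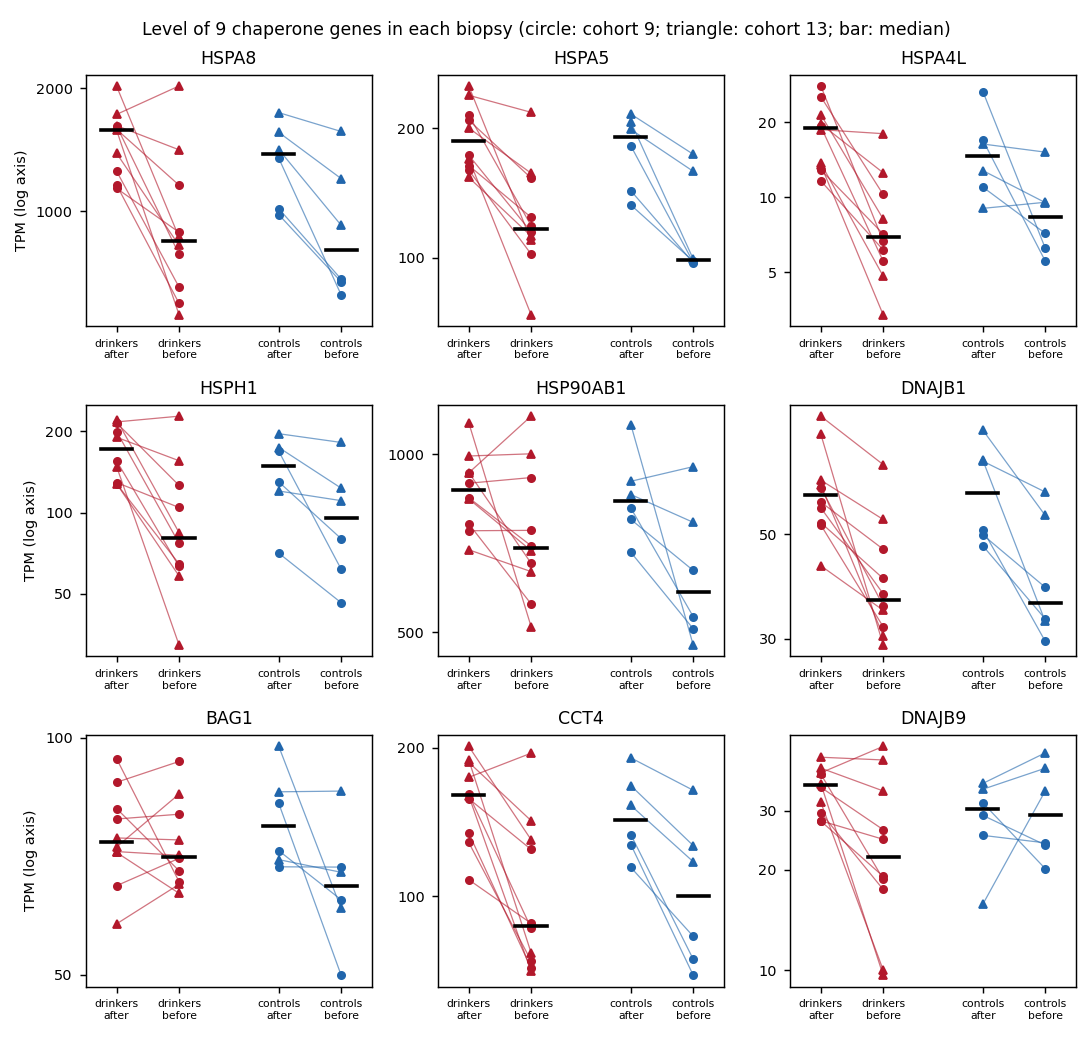
TPM (log axis) of 9 chaperone genes in each biopsy of 10 drinkers (red) and 6 controls (blue), after left of before, with lines joining the biopsies of an animal, circles for cohort 9, triangles for cohort 13 and bars at the group median. HSPA5 and DNAJB1 were higher after in 16 of 16 animals, BAG1 in 10 of 16 and DNAJB9 in 9 of 10 drinkers and 3 of 6 controls.

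Of HSP90 and its partners, 5 of 6 rose over all pairs (median 0.47) and 4 after median scaling (median 0.26). The median was 0.50 in drinkers and 0.41 in controls. HSP90AA1, the stress-inducible cytosolic form, had 851, 1070 and 1340 TPM in drinkers after and 389, 637 and 1380 TPM before, and 770, 864 and 1160 TPM in controls after and 468, 654 and 1040 TPM before. It had a change of 0.55 ± 0.11 over all pairs (limma adjusted p = 0.00196, higher in 14 of 16 animals), 0.66 ± 0.14 in drinkers and 0.36 ± 0.18 in controls.

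HSP90AB1, the constitutive form, had 690, 869 and 1130 TPM in drinkers after and 512, 694 and 1160 TPM before, and 683, 833 and 1120 TPM in controls after and 476, 584 and 953 TPM before. Its change of 0.32 ± 0.10 over all pairs passed (limma adjusted p = 0.0203), but was 0.10 after median scaling (adjusted p = 0.41). In drinkers alone it did not pass, at 0.24 ± 0.13 (adjusted p = 0.136), and that estimate was -0.02 after median scaling.

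STIP1 (HOP) bridges HSP70 and HSP90. Its levels were 91.8, 111 and 154 TPM in drinkers after and 55.4, 69.2 and 148 TPM before, and 89.0, 120 and 164 TPM in controls after and 56.2, 64.0 and 120 TPM before. STIP1 had a change of 0.58 ± 0.11 in drinkers (limma adjusted p = 0.00275) and 0.67 ± 0.15 in controls (adjusted p = 0.0501, or 0.0206 after median scaling). HSP90B1 (GRP94, the HSP90 of the ER) and AHSA1, which stimulates HSP90's ATPase, rose by 0.50 ± 0.08 and 0.45 ± 0.08 over all pairs. CDC37, which brings kinases to HSP90, was at 0.18 ± 0.09 (adjusted p = 0.104) and at -0.03 after median scaling.

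HSPD1 forms the mitochondrial chaperonin HSP60. It had 61.8, 77.9 and 92.8 TPM in drinkers after and 26.0, 45 and 89.0 TPM before, and 56.1, 68.5 and 78.7 TPM in controls after and 42.0, 51.3 and 73.8 TPM before. The change was 0.61 ± 0.12 in drinkers (limma adjusted p = 0.00274, higher in 9 of 10 animals) and 0.29 ± 0.15 in controls (adjusted p = 0.427), and the difference of 0.32 ± 0.19 had an adjusted p of 0.634.

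All 4 DNAJA genes rose over all pairs (median 0.43), and 2 of them, DNAJA1 and DNAJA2, after median scaling. DNAJA1, a cytosolic HSP40 that works with HSPA8, had 231, 351 and 413 TPM in drinkers after and 118, 164 and 462 TPM before, and 204, 306 and 352 TPM in controls after and 121, 182 and 342 TPM before. The closely related DNAJA2 had 64.0, 91.4 and 118 TPM in drinkers after and 39.6, 50.0 and 119 TPM before, and 64.2, 80.5 and 98.6 TPM in controls after and 41.4, 60.0 and 108 TPM before. In each arm the after median of both genes lay above the before median while the ranges overlapped. DNAJA1 had a change of 0.71 ± 0.13 over all pairs (limma adjusted p = 0.000837, higher in 15 of 16 animals) and DNAJA2 one of 0.51 ± 0.10 (adjusted p = 0.00188, higher in 14 of 16 animals). In drinkers the changes were 0.78 ± 0.16 and 0.61 ± 0.13, and in controls 0.60 ± 0.21 and 0.35 ± 0.16. DNAJA3, the mitochondrial TID1, and DNAJA4 rose by 0.35 ± 0.08 and 0.32 ± 0.09 over all pairs.

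In the DNAJB family 5 of 7 rose over all pairs (median 0.41) and 3 after median scaling. DNAJB1, the HSP40 that HSF1 induces, had 42.8, 60.6 and 88.7 TPM in drinkers after and 29.2, 36.4 and 70.1 TPM before, and 47.2, 61.1 and 82.9 TPM in controls after and 29.7, 35.8 and 61.3 TPM before. It was higher after in 16 of 16 animals, by 0.62 ± 0.12 in drinkers (limma adjusted p = 0.00241) and 0.59 ± 0.15 in controls (adjusted p = 0.112). DNAJB4, a cytosolic J protein, had 28.0, 37.5 and 45.3 TPM in drinkers after and 7.08, 19.5 and 44.3 TPM before, and 14.7, 30.5 and 38.6 TPM in controls after and 14.6, 23.8 and 38.7 TPM before. Its change was 0.71 ± 0.16 over all pairs (adjusted p = 0.00449), 0.96 ± 0.19 in drinkers and 0.28 ± 0.24 in controls.

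DNAJB2, a J protein rich in neurons that feeds clients to the proteasome, was the most abundant of the family and did not pass over all pairs or in either arm. It had 103, 147 and 167 TPM in drinkers after and 93.4, 146 and 187 TPM before, and 130, 156 and 169 TPM in controls after and 113, 144 and 161 TPM before. The estimate was 0.04 ± 0.08 over all pairs (limma adjusted p = 0.702), with a 95% interval from -0.12 to 0.21, and -0.17 after median scaling. DNAJB6, which holds back protein aggregation, rose by 0.45 ± 0.10, DNAJB5 by 0.41 ± 0.10, and DNAJB11, a BiP partner in the ER, by 0.35 ± 0.07. DNAJB11 was higher after in 16 of 16 animals as deposited, but not in all 16 after median scaling.

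Among the DNAJC genes 3 of 4 rose over all pairs (median 0.33) and 1, DNAJC3, after median scaling. DNAJC6, the neuronal auxilin, had 50.9, 97.2 and 118 TPM in drinkers after and 20.1, 50.6 and 157 TPM before, and 47.4, 74.7 and 90.6 TPM in controls after and 35.2, 54.9 and 112 TPM before. It had a change of 0.49 ± 0.17 over all pairs (limma adjusted p = 0.0309), or 0.28 after median scaling (adjusted p = 0.0872). With cell type markers as covariates it turned to -0.12 over all pairs (adjusted p = 0.651) and -0.02 in drinkers (adjusted p = 0.92). DNAJC3 (P58IPK), which holds unfolded proteins in the ER, had 6.96, 10.3 and 12.8 TPM in drinkers after and 3.21, 7.68 and 10.8 TPM before, and 7.39, 9.06 and 11.5 TPM in controls after and 6.34, 7.09 and 10.8 TPM before. Its change was 0.38 ± 0.10 (adjusted p = 0.00966), 0.48 ± 0.12 in drinkers and 0.20 ± 0.16 in controls.

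DNAJC5, the cysteine string protein of synaptic vesicles, did not pass, unlike its partner HSPA8, and the difference between the genes was not tested. It had 55.2, 114 and 159 TPM in drinkers after and 31.3, 137 and 154 TPM before, and 89.9, 105 and 137 TPM in controls after and 69.1, 112 and 130 TPM before. Only 7 of 16 animals were higher after, and the estimate of 0.06 ± 0.15 (limma adjusted p = 0.778) had a wide 95% interval, from -0.24 to 0.35. After median scaling it was -0.16. DNAJC7, which links HSP70 and HSP90, rose by 0.29 ± 0.10 as deposited and was at 0.08 after median scaling.

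In the BAG family 3 of 5 rose over all pairs (median 0.46), and 2 after median scaling. BAG2, which blocks the ubiquitin ligase CHIP, had 6.05, 10.4 and 12.1 TPM in drinkers after and 3.10, 4 and 9.52 TPM before, and 6.30, 7.65 and 11.7 TPM in controls after and 2.79, 4.68 and 9.96 TPM before. It is a low transcript, with 51 to 487 reads per library. As deposited it was still higher after in 16 of 16 animals, but not in all 16 after median scaling. Its change was 0.77 ± 0.11 over all pairs (limma adjusted p = 0.000108), 0.86 ± 0.13 in drinkers and 0.61 ± 0.17 in controls.

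BAG5, a nucleotide exchange factor, had 17.4, 28.5 and 35.3 TPM in drinkers after and 6.66, 15.8 and 34.7 TPM before, and 18.5, 23.6 and 30.3 TPM in controls after and 14.4, 18.0 and 25.9 TPM before. BAG4, a silencer of death receptors, had 25, 31.8 and 41.4 TPM in drinkers after and 7.39, 19.9 and 41.0 TPM before, and 14.2, 26.4 and 33.0 TPM in controls after and 13.1, 22.8 and 43.4 TPM before. They rose by 0.53 ± 0.13 (limma adjusted p = 0.00682) and 0.46 ± 0.17 (adjusted p = 0.035) over all pairs, BAG4 with 0.25 after median scaling (adjusted p = 0.177).

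BAG1, the founding exchange factor of HSP70, had 58.0, 73.6 and 94.0 TPM in drinkers after and 63.4, 70.6 and 93.3 TPM before, and 68.6, 77.2 and 97.5 TPM in controls after and 49.9, 64.9 and 85.6 TPM before. The estimate was 0.13 ± 0.08 over all pairs (limma adjusted p = 0.207), with 0.04 ± 0.10 in drinkers and 0.27 ± 0.12 in controls, and -0.09 over all pairs after median scaling. BAG3, which directs clients to autophagy and is induced by HSF1 under stress, was at 0.13 ± 0.09 (adjusted p = 0.275) and at -0.08 after median scaling.

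All 6 CCT subunits rose over all pairs (median 0.46, from 0.35 to 0.60) and in drinkers (median 0.54, from 0.35 to 0.65), and 4 rose after median scaling over all pairs. In controls the 6 estimates ran from 0.31 to 0.53 with none past the threshold. CCT3, the most abundant subunit, had 122, 154 and 197 TPM in drinkers after and 89.7, 114 and 192 TPM before, and 117, 154 and 186 TPM in controls after and 89.3, 111 and 180 TPM before. CCT4 had 108, 160 and 201 TPM in drinkers after and 70.5, 87.3 and 195 TPM before, and 114, 143 and 191 TPM in controls after and 69.3, 100 and 164 TPM before. For CCT2 the levels were 103, 131 and 169 TPM in drinkers after and 64.3, 75.7 and 165 TPM before, and 95.6, 114 and 147 TPM in controls after and 59.3, 84.3 and 133 TPM before. All 3 had higher medians after in both arms, with overlapping ranges. CCT4 had a change of 0.60 ± 0.09 over all pairs (limma adjusted p = 0.000307), CCT2 one of 0.53 ± 0.08 (adjusted p = 0.000358) and CCT3 one of 0.35 ± 0.07 (adjusted p = 0.0021), CCT3 with 0.13 after median scaling (adjusted p = 0.133). Each of the 3 was higher after in 15 of 16 animals. The other two subunits of the ring, CCT6A and CCT8, also rose over all pairs, by 0.41 ± 0.09 and 0.46 ± 0.09.

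Of the heat shock factors HSF2 rose and HSF1 did not pass. HSF1, the main driver of heat shock genes, had 21.8, 32.1 and 38.8 TPM in drinkers after and 22.3, 31.0 and 39.5 TPM before, and 24.2, 34.3 and 48.5 TPM in controls after and 24.0, 27.3 and 33.5 TPM before. Its estimate was 0.13 ± 0.09 over all pairs (limma adjusted p = 0.281) and -0.09 after median scaling. HSF2, which pairs with HSF1 on some targets, had 20.6, 25.9 and 29.5 TPM in drinkers after and 8.01, 16 and 35.3 TPM before, and 16.3, 21.0 and 26.6 TPM in controls after and 11.2, 18.0 and 31.3 TPM before. It had a change of 0.40 ± 0.13 over all pairs (adjusted p = 0.0242), or 0.19 after median scaling (adjusted p = 0.168). HSF1 acts mostly through the activity of its protein, which RNA levels do not measure.

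**Figure D3:**
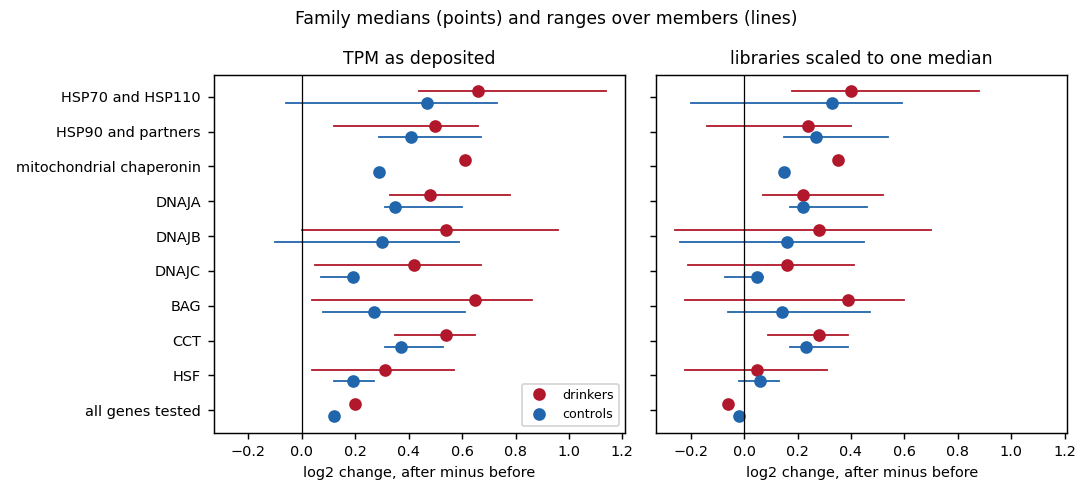
Median (points) and range over members (lines) of the fitted log2 change (after minus before) per chaperone family in drinkers (red, upper) and controls (blue, lower), for TPM as deposited (left) and libraries scaled to one median (right). The HSP70 and HSP110 median was 0.66 in drinkers and 0.47 in controls as deposited, and 0.40 and 0.33 after scaling, against -0.06 and -0.02 for all genes tested.

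By compartment, over all pairs 5 of 6 ER members rose with a median of 0.44, 3 of 3 mitochondrial members with a median of 0.40, and 28 of 35 members of the cytosol and nucleus with a median of 0.46. After median scaling these were 4 of 6 (0.22), 2 of 3 (0.19) and 19 of 35 (0.25). In drinkers the ER members had a median of 0.59, the mitochondrial ones 0.46 and the cytosolic ones 0.56, and in controls 0.29, 0.31 and 0.34. Differences between compartments were not tested.

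Of the 44, HSPA5, DNAJB1, DNAJB11 and BAG2 were higher after in 16 of 16 animals, where 1.28% of all genes were. After median scaling there were 5 such members, HSPA5, HSPA9, DNAJB1, STIP1 and CCT2, against 0.711% of all genes. For no member did the after libraries all lie above the before libraries, which held for 0.0979% of all genes in drinkers and 0.502% in controls, or all lie below them (0.00653% and 0.0587%).

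In each animal the members were set against all genes. The median over the 44 members exceeded the median over all genes in 16 of 16 animals, by 0.022 in drinker X10230 up to 0.584 in drinker X10201. The members' own median change was 1.023 in drinker X10227 and -0.168 in drinker X10230. In X10230, 7 of 44 members were higher after, against 21.8% of all genes, and 25 of 44 after median scaling, against 53.2%. Among controls it ran from -0.007 in X10234 to 0.836 in X10197. Animals X10227, X10229 and X10197, with 3 of the 4 largest member medians, had the largest falls of the mitochondrial percentage, by 20.2, 18.6 and 12.5 percentage points. Without those 3 animals, an alternative chosen after seeing the data, 23 of 44 members rose over all pairs, against 8.53% of all genes. The part of the mitochondrial percentage in the result was not tested beyond this and the covariate fit given below.

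**Figure D4:**
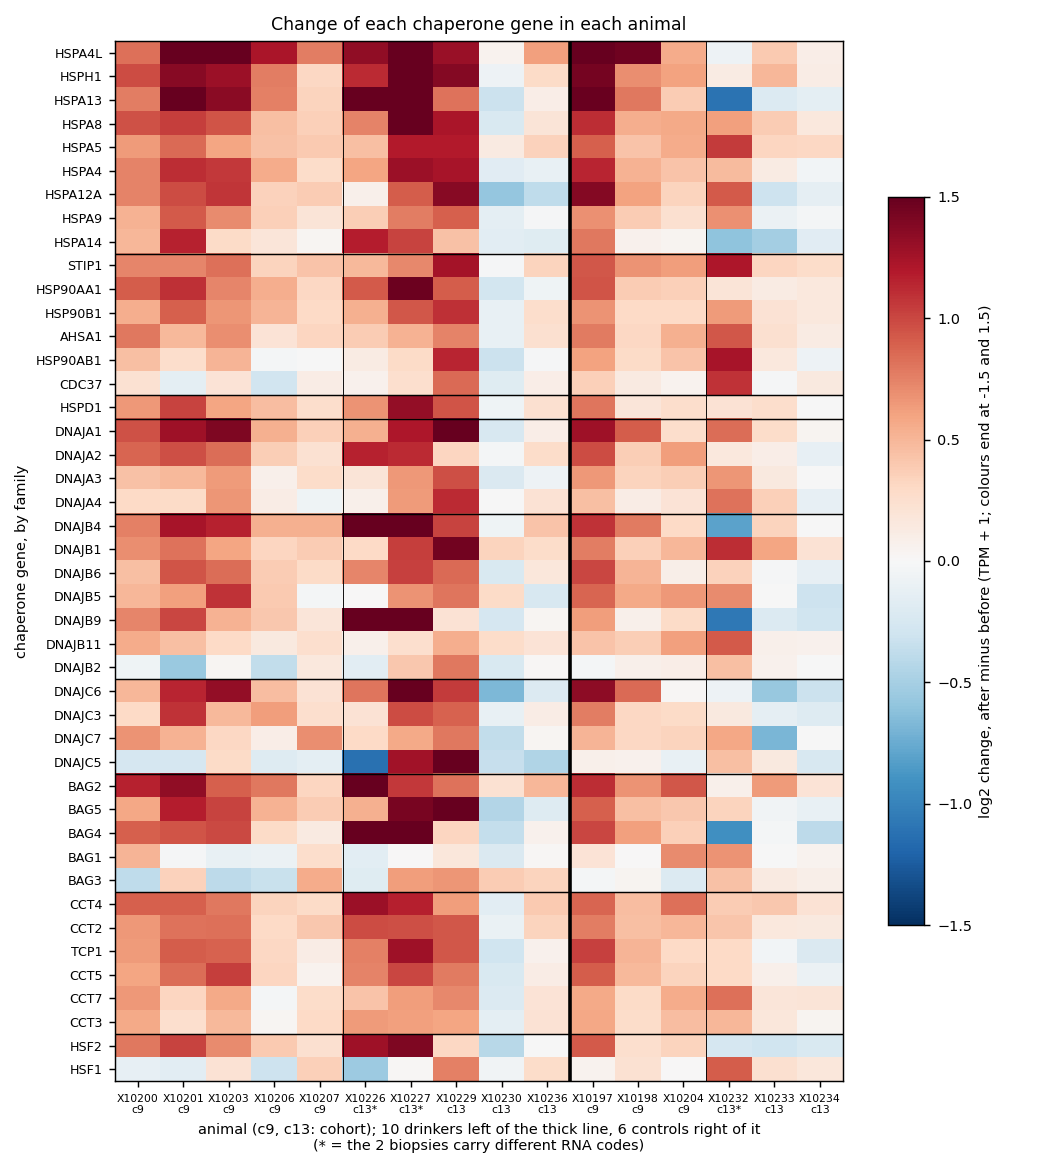
Log2 change (after minus before, TPM + 1) of each chaperone gene (rows, by family) in each of 10 drinkers and 6 controls (columns), with the cohort under each animal and an asterisk where the biopsies carry different RNA codes. Drinkers X10227 and X10229 were higher after for 44 of 44 members (84.2% and 87.9% of all genes) and drinker X10230 for 7 (21.8% of all genes). HSPA13, HSPA14, DNAJB4, DNAJB9, BAG4 and HSF2 run opposite ways in X10226 and X10227 against X10232. So do HSPA4L and DNAJC6, each at only -0.073 in X10232.

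The spread between animals was also compared after and before. Among drinkers, the highest before value of 36 of the 44 members came from one library, that of X10230, which held the highest value of 41.9% of all genes tested and the lowest mitochondrial percentage, 21.7%. Among controls, 37 of the 44 highest before values came from X10234, against 34.5% of all genes. The SD between animals of the log2 level was smaller after than before for 43 of 44 members in drinkers, against 79.8% of all genes, and for 41 of 44 in controls, against 61.1%. Its median over members was 0.25 after and 0.50 before in drinkers (0.31 and 0.45 over all genes), and 0.26 after and 0.45 before in controls (0.31 and 0.34 over all genes). Without X10230 the count in drinkers was again 43 (75.1% of all genes), and without X10234 it was 35 in controls (55.5%). After median scaling it was 38 in drinkers (75.2% of all genes) and 25 in controls (49.2%). The median SD over members was then 0.23 after and 0.35 before in drinkers (0.27 and 0.36 over all genes), and 0.34 after and 0.35 before in controls (0.30 at both over all genes). With median scaling and without X10230 the count in drinkers was 32 of 44, close to the 71.8% of all genes, and without X10234 it was 22 of 44 in controls, against 45.3%.

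**Figure D5:**
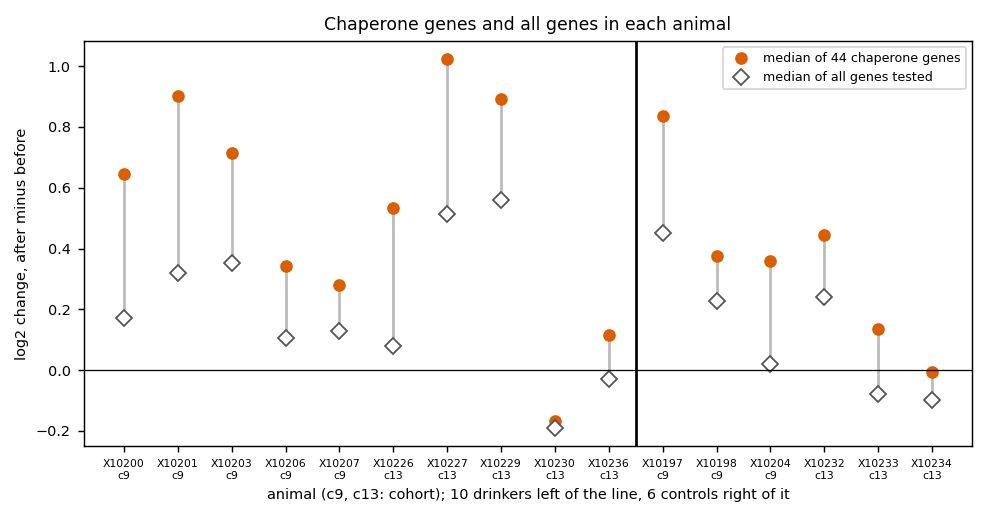
Median log2 change (after minus before) of the 44 chaperone genes (filled) and of all genes tested (open) in each animal, with 10 drinkers left of the line and 6 controls right of it. The chaperone median lies above the other in 16 of 16 animals, from -0.168 in X10230 to 1.023 in X10227.

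The members with the smallest p for a difference between the arms were DNAJB9, DNAJB4 and HSPA14. DNAJB9 (ERdj4), which helps to clear misfolded proteins from the ER, had 28.0, 35.8 and 43.4 TPM in drinkers after and 9.69, 21.9 and 46.8 TPM before, and 15.8, 30.4 and 36.3 TPM in controls after and 20.2, 29.3 and 44.7 TPM before. It had a change of 0.62 ± 0.18 in drinkers and -0.10 ± 0.23 in controls, a difference of 0.72 ± 0.30 (limma p = 0.0248, adjusted p = 0.634). For DNAJB4 the difference was 0.69 ± 0.31 (p = 0.0383, adjusted p = 0.634) and for HSPA14 0.51 ± 0.25 (p = 0.0529, adjusted p = 0.634). HSPA14 had 15.4, 17.8 and 22.2 TPM in drinkers after and 6.68, 14.5 and 23.4 TPM before, and 12.1, 15.0 and 18.7 TPM in controls after and 9.78, 16.3 and 22.9 TPM before. HSPA13, BAG4 and HSF2 came next in p, with differences of 0.80 ± 0.41, 0.57 ± 0.33 and 0.45 ± 0.26.

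These 6 genes shared one more feature, noticed after their values were seen. The sample titles carry an RNA code, and 3 of the 16 cohort 13 libraries have the code RNA171120RH, the before biopsies of drinkers X10226 and X10227 and the after biopsy of control X10232. HSPA13, HSPA14, DNAJB4, DNAJB9, BAG4 and HSF2 were lower in all 3 than in all 13 other libraries of cohort 13. These were 6 of 44 members, against 15.6% of all genes tested, so members showed it no more often than other genes. No member was higher in all 3 (0.352% of all genes). DNAJB9 had 10, 9.69 and 15.8 TPM in X10226, X10227 and X10232 under that code, against 31.8 to 46.8 TPM in the other 13. DNAJB4 had 7.74, 7.08 and 14.7 TPM, against 21.9 to 45.3 TPM. HSPA13 had 9.61, 5.30 and 13.3 TPM, against 28.8 to 57.8 TPM.

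Since that code falls on the before side in drinkers and on the after side in controls, the pairs were also compared without these 3 animals. In the 13 pairs with a single code, the difference was 0.26 for DNAJB9, 0.21 for DNAJB4, 0.24 for HSPA14, 0.21 for HSPA13, 0.10 for BAG4 and 0.18 for HSF2, each with a limma adjusted p of 1. DNAJB4 (0.70, adjusted p = 0.0148) and HSPA13 (0.67, adjusted p = 0.0466) still rose in drinkers, while DNAJB9 (0.35), BAG4 (0.41), HSF2 (0.38) and HSPA14 (0.28) no longer passed. Over the pairs with a single code, 32 of 44 members rose with drinkers and controls pooled (23% of all genes) and 22 in drinkers (9.46%).

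As deposited, estimates were above 0 for 41 of 44 members in cohort 9 and for 44 in cohort 13. The share of all genes is not given for these counts, so they do not show an excess over all genes. In cohort 9, 34 of 44 members rose and none fell (30.5% and 4.69% of all genes) with a median of 0.57. After median scaling 25 rose there and 2 fell, DNAJB2 (-0.35) and BAG3 (-0.32), against 11.8% and 18.3% of all genes. In cohort 13, 4 of 44 rose and none fell, against 1.02% and 0.0522% of all genes, with a median of 0.34, and 3 rose after median scaling (0.633% of all genes, with 0.405% lower). The 4 as deposited were DNAJB1 (0.66 ± 0.13, limma adjusted p = 0.0135), HSPA5 (0.62 ± 0.12, adjusted p = 0.0138), STIP1 (0.57 ± 0.13, adjusted p = 0.0302) and BAG2 (0.63 ± 0.15, adjusted p = 0.0381). Without X10227 none of the 44 rose in cohort 13 (0.365% of all genes), without X10229 1 rose (0.365%), and without X10230 the count was 10 (1.36%). The change in cohort 13 minus that in cohort 9 passed for 0 members, against 0.0131% of all genes as deposited (after median scaling 0.0326% higher and 0.0196% lower, again with 0 members). At an unadjusted p below 0.05 it held 1 member in limma, against 7.49% of all genes. The smallest p were those of HSPA4L (-0.61 ± 0.28, p = 0.0415, adjusted p = 0.658), BAG3 (0.36 ± 0.18, p = 0.0542) and HSPA12A (-0.50 ± 0.26, p = 0.0757). BAG3 had 4.67, 5.65 and 8.92 TPM in drinkers after and 3.37, 6.31 and 7.59 TPM before, and 5.49, 7.01 and 7.95 TPM in controls after and 4.57, 6.81 and 8.54 TPM before. HSPA12A had 42.7, 76.3 and 107 TPM in drinkers after and 34.7, 50.1 and 109 TPM before, and 61.8, 74.9 and 98.6 TPM in controls after and 37.3, 48.8 and 86.6 TPM before.

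In the authors' deposited table, 26 of 44 members are higher and 0 lower in drinkers at an FDR below 0.05, against 14.1% higher and 15.4% lower of the genes with an FDR there. For controls the authors' deposited table calls HSPA5, HSPA8, DNAJA1, DNAJB1, STIP1 and AHSA1 higher and no member lower, against 1.04% and 0.74% of genes. The members' median log2 fold change in the authors' deposited table is 0.31 in drinkers and 0.19 in controls. Over all genes tested here, the authors' values have a median of -0.01 in drinkers and -0.0 in controls.

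Markers of several cell types moved in the same libraries. Of 7 neuronal markers 5 rose over all pairs, with a summed level of 3910, 5140 and 6730 TPM (lowest, median, highest) in drinkers after and 2240, 3330 and 7470 TPM before, and of 3550, 4340 and 5410 TPM in controls after and 2250, 3210 and 6380 TPM before. The oligodendrocyte markers had a summed level of 1020, 2180 and 5430 TPM in drinkers after and 669, 1290 and 4240 TPM before, and 1610, 1910 and 2570 TPM in controls after and 1100, 1550 and 8660 TPM before. Of 7 microglial markers 5 fell, with 85.8, 106 and 160 TPM in drinkers after and 89.9, 151 and 197 TPM before, and 80.6, 112 and 144 TPM in controls after and 111, 157 and 202 TPM before. Among 6 blood cell markers, of which up to 2 were at 0 in some library of a group, 4 fell, S100A8 (-2.05 ± 0.50), S100A9 (-2.26 ± 0.59), FCN1 (-1.01 ± 0.29) and PTPRC (-0.71 ± 0.23). Their summed level with CD3E and HBB was 147, 417 and 814 TPM in drinkers after and 23.4, 1240 and 21000 TPM before, and 122, 1710 and 8440 TPM in controls after and 29.7, 525 and 10500 TPM before. Most of that sum was HBB, which did not pass (-0.29 ± 0.76) and whose median was 1710 TPM in controls after and 511 TPM before, so the sum does not follow the 4 genes. With the mean levels of neuronal, oligodendrocyte and astrocyte markers as covariates, HSPA5, HSPA8, DNAJB1, BAG2, STIP1 and CCT2 rose over all pairs, 6 of 44 against 1.08% of all genes, with 4 in drinkers (0.724%) and 0 in cohort 9 (0.0783%). With the mitochondrial percentage as a covariate 17 rose over all pairs (2.81% of all genes), 13 in drinkers (2.37%) and 14 in cohort 9 (4.68%). The part of these cell types in the chaperone changes was not tested further. Reads were not assigned by strand, and near-identical processed copies of genes such as HSPA8, HSP90AA1, HSP90AB1 and HSPD1 could share reads with them, so their levels are uncertain to that extent.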

How the data were processed

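Biopsies were sequenced as unstranded, single-end, polyA-selected TruSeq libraries on an Illumina HiSeq, per the labels' protocols. STAR 2.5.2b, HTSeq 0.6.1p1 and DESeq2 are named per the submitters' processing notes. Genome build and gene annotation were not given in the sources used here. Values were deposited by the authors as TPM per library, and the table also holds the authors' deposited log2 fold changes, p-values and FDR for each arm, per the file headers. After, before and the animal follow the titles, while drinkers and controls are marked in the table header alone.

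The design allowed for counts, and since the deposited values were TPM its stated test was used, limma-trend (limma 3.58.1, R 4.3.3) on log2(TPM + 1) over the 15324 genes whose mean TPM reached 1, with the animal as a block. Drinkers and controls shared one fit and one estimate of the spread, and so did the cohorts. Calls had a Benjamini-Hochberg adjusted p below 0.05 over all genes tested, and a change is after minus before, with fold changes of low genes understated by the pseudocount of 1. Animals are the replicates. Pairing rests on the animal numbers, and the deviations of an animal's 2 libraries correlated from 0.07 to 0.54 (median 0.33, above 0.1 in 14 of 16). Whole reads were recovered from the TPM steps (tolerance 1e-06) for 29435 of the 29437 genes detected in at least 2 libraries, or 99.99%. The fits and the recovery were tested on simulated data.

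The members, families and lists were chosen with earlier results of these data known, so no set test was run and families are given by counts and medians. The genes given in full are, per family, the 2 most abundant and the 2 with the largest called change, and the 3 of smallest p for each difference. Other members are given by single values. Alternatives were no block, other scalings, filters and pseudocounts, limma-voom on recovered reads, composition and mitochondrial covariates, pairs with 1 RNA code, separate fits of the arms and leaving out animals. Figures were drawn with Python 3.11.15, pandas 2.3.3, numpy 2.4.6 and matplotlib 3.10.9.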

Additional observations from a re-analysis of the deposited data

Results flagged for a closer look

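In each arm the change of each of the 44 genes was screened for an animal far from the rest, which chance alone gives in about 1 of 20 groups, and 6 of 88 groups held one. Control X10232, whose biopsies carry different RNA codes, stood above the other controls for CDC37 (1.08, next animal 0.36), HSF1 (0.91, next 0.24) and DNAJB2 (0.45, next 0.10). Control X10197 stood above the others for HSP90AA1 (0.94, next 0.38) and HSPD1 (0.80, next 0.27). Among drinkers, X10229 stood apart for CDC37 (0.84, next 0.26). Values are log2 changes, after minus before. No cause of these values was tested.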

How the results depend on the processing

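Counts are members called by limma (adjusted p below 0.05) of 44, higher after than before, and the cause of each shift was not tested. Where no share of all genes is given for a fit, here or above, its count shows only how member calls moved. Such a count does not show an excess over all genes. Composition covariates gave 6 over all pairs, 4 in drinkers and 0 in cohort 9, against 36, 37 and 34 in the fits reported, and the mitochondrial percent as a covariate gave 17, 13 and 14 (2.81%, 2.37% and 4.68% of all genes). HSPA12A (-0.03 over all pairs, -0.09 in drinkers) and DNAJC6 (-0.12 and -0.02) turned below 0 under the composition covariates, none of them passing. In drinkers median scaling and limma-voom on recovered reads each gave 24, and pairs with 1 RNA code 22. Without the 3 animals of largest mitochondrial shift 23 passed over all pairs and 0 in cohort 13. Controls, at 0 as reported, gave 2 with median scaling, TPM without mitochondrial genes, trimmed-mean scaling, voom or the mitochondrial covariate, and 1 with a mean TPM of at least 5. Lower calls in cohort 9, at 0 as reported, came to 2 with median scaling, 1 with trimmed-mean scaling and 1 with voom. Cohort 13, at 4 as reported, gave 2 with no filter and 0 over pairs with 1 RNA code.

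One alternative fit had no animal block, so the pairing was left out. In it, 32 members were higher over all pairs, 25 in drinkers, 0 in controls, 32 in cohort 9 and 1 in cohort 13. Shares of all genes are not given for that fit. Leaving out 1 animal at a time gave 32 to 37 over all pairs, 30 to 37 in drinkers, 0 to 2 in controls, 28 to 35 in cohort 9 and 0 to 10 in cohort 13, where it was 0 without X10227, 1 without X10229 and 10 without X10230. After median scaling as well, a choice made after seeing the data, as was leaving out the 3 animals, the ranges were 22 to 26, 19 to 26 and 0 to 2 over all pairs, in drinkers and in controls, with 19 in drinkers without X10201, 20 without X10200 or X10226 and 21 without X10203, X10206 or X10227. With 6 controls and 10 drinkers, the number of animals limits the precision in each arm.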

Other observations

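Genes around the chaperone families, from lists taken by name, were read in the same fits. Of 7 further HSP90 partners, 5 rose over all pairs (limma, adjusted p below 0.05; 32.9% of all genes rose), with a median log2 change of 0.52. CHORDC1, a zinc-binding HSP90 partner induced by heat shock, had the largest change of these, 1.26 ± 0.14 (adjusted p = 1.15e-05), with 1.41 ± 0.17 in drinkers and 1.01 ± 0.22 in controls, where it did not pass (adjusted p = 0.0504). PPID (cyclophilin 40) rose by 0.74 ± 0.08 and FKBP4 (FKBP52) by 0.68 ± 0.09, and all 3 were higher after in 16 of 16 animals. PPID and FKBP4 also passed in controls (0.67 ± 0.13 with an adjusted p of 0.0287, and 0.76 ± 0.14 with 0.0254), where 0.248% of all genes rose. FKBP5, a target of glucocorticoid signalling, did not pass (0.13 ± 0.18).

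Of 16 genes of the unfolded protein response, 15 rose and 1 fell over all pairs, against 32.9% and 3.69% of all genes. With libraries scaled to one median 3 rose and 1 fell, against 9.7% and 17.1% of all genes. XBP1, a transcription factor of that response, rose by 0.59 ± 0.08 in 16 of 16 animals and MANF by 0.54 ± 0.08, while DDIT3 (CHOP), which promotes cell death under ER stress, fell by 0.20 (SE 0.07). Among 7 small heat shock proteins HSPB8 (0.50 ± 0.09) and HSPB1 (0.48 ± 0.15) rose, near the 32.9% of all genes, so this list shows no excess. Of 6 prefoldin genes 3 rose, of 3 other HSP70 genes 2 and of 8 genes of mitochondrial protein quality 4, against 32.9% of all genes. After median scaling none of these 3 lists had a gene that passed. The other HSP70 genes were HSPA1L, HSPA2 and HSPA6. HSPA1L (group medians of 1.84 to 2.56 TPM) and HSPA6 (0.903 to 1.68 TPM) were low. HSPA1A and HSPA1B were also listed, but had no values under these symbols and were not analysed here.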
